A study of Drosophila melanogaster with 10 samples.

Results

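Non-LTR retrotransposons of 15 families were followed in RNA-seq of whole larval brains of Drosophila melanogaster at the third instar. Members were the insertion entries of the deposited count table whose family name is I, Ivk, jockey, F, Doc, G, X, BS, Juan, R1A1, Rt1a, Rt1b, Rt1c, Cr1a or baggins. The rule gave 751 of the 5736 insertion entries and 15 of the 128 families in the table, and left out the telomeric families and the numbered relatives of these families. The 4 libraries labelled vostok, a mutant of CG11504, were compared with 4 libraries labelled control, whose library names begin with yw. Tissue and stage were shared by both groups. The labels give neither the allele nor the strain that carries it, so the vostok genotype and the genetic background of its larvae cannot be told apart. Nor do they say whether replicates were dissected separately, so the p-values refer to the spread among these libraries, part of which may be technical. A further 2 vostok libraries, made by Micro-C for chromosome contacts, are outside this comparison.

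Non-LTR retrotransposons copy themselves through an RNA. The RNA of an active element encodes an RNA-binding protein and an enzyme with endonuclease and reverse transcriptase parts, which nicks the target DNA and makes the new copy at the nick. That synthesis often stops early, so most genomic copies lack their front part. In the fly germ line these elements are silenced by piRNAs bound to Argonaute proteins of the Piwi group, while in somatic tissue siRNAs bound to AGO2 and heterochromatin are known to take part. RNA counted on a copy can come from the element's own promoter or from a neighbouring gene that reads through it.

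The libraries held 57224625 to 81373505 estimated counts on gene rows, and insertion entries of all families took 0.448% to 0.571% of all counts. Levels are given as CPM, with the total on gene rows as the library size, at which 3 counts correspond to 0.0369 to 0.0524 CPM. This floor covers counting error only, since the sources name no molecular identifiers. CG11504 RNA was at 59.8 ± 4.90 CPM in control and 73.9 ± 2.20 CPM in vostok libraries (SD, n = 4 each) and was higher in each vostok library than in any control library, so the targeted gene's RNA does not check which libraries are mutant. The pigment gene y was at 0.841 ± 0.128 CPM in control and 124 ± 22.6 CPM in vostok libraries. Summed levels of the neuronal markers elav, brp, Syt1 and nSyb were 1011, 2038, 1235 and 1821 CPM in control replicates 1 to 4 and 1897 to 2215 CPM in vostok libraries. Summed levels of 9 hemocyte markers spanned 252 to 5339 CPM in control and 154 to 785 CPM in vostok libraries, and those of 3 fat body markers 26.3 to 188 and 56.1 to 246 CPM. The glial marker repo was at 83.1 to 100.3 and 87.8 to 105 CPM, and 4 neuroblast markers summed to 385 to 465 and 464 to 548 CPM. Of these marker genes mira, a neuroblast gene, was called higher and vkg, a collagen gene of hemocytes and fat body, lower (edgeR adjusted p = 0.0471 and 0.0467), and these calls were lost with control replicate 1, 3 or 4 or vostok replicate 1, 2, 3 or 4 left out (adjusted p = 0.0596 to 0.12) for mira and with control replicate 1, 3 or 4 or vostok replicate 1, 2, 3 or 4 left out (adjusted p = 0.0515 to 0.116) for vkg. In bulk tissue, fewer cells of a type and less RNA per cell cannot be told apart.

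Together the 15 families were at a higher level in vostok brains, but families and copies went both ways. Their summed level was 264, 393, 328 and 363 CPM in control replicates 1 to 4 and 427, 461, 505 and 469 CPM in vostok replicates 1 to 4. Each vostok library lay above each control library, with group means of 337 ± 55.3 and 465 ± 31.9 CPM, a ratio of 1.38. All other insertion entries had a ratio of 1.17, from 4391 ± 312 CPM in control to 5125 ± 160 CPM in vostok libraries. No test was made on these sums. Of the 15 family sums, 4 were higher in vostok libraries (I, jockey, Rt1a and Rt1c) and 2 lower (Doc and BS) at an adjusted p below 0.05 in edgeR's quasi-likelihood test, fitted over all genes and all families. In that fit 23.8% of all 10860 rows were called, 11.7% higher and 12.1% lower. Among all 111 tested families 33.3% were called, 20.7% higher and 12.6% lower, so that the called share among these 15 is near that of families in general. The groups did not overlap in 8 of the 15 family sums, against 30.2% of all rows and 41.4% of all families. The median log2 fold change (vostok over control) was 0.57 over the 15 families, 0.37 over all families and 0.01 over all rows. With control replicate 2 left out 7 families were higher, F, Rt1b and baggins in addition. The number lower was 2 with any single library left out.

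**Figure D1:**
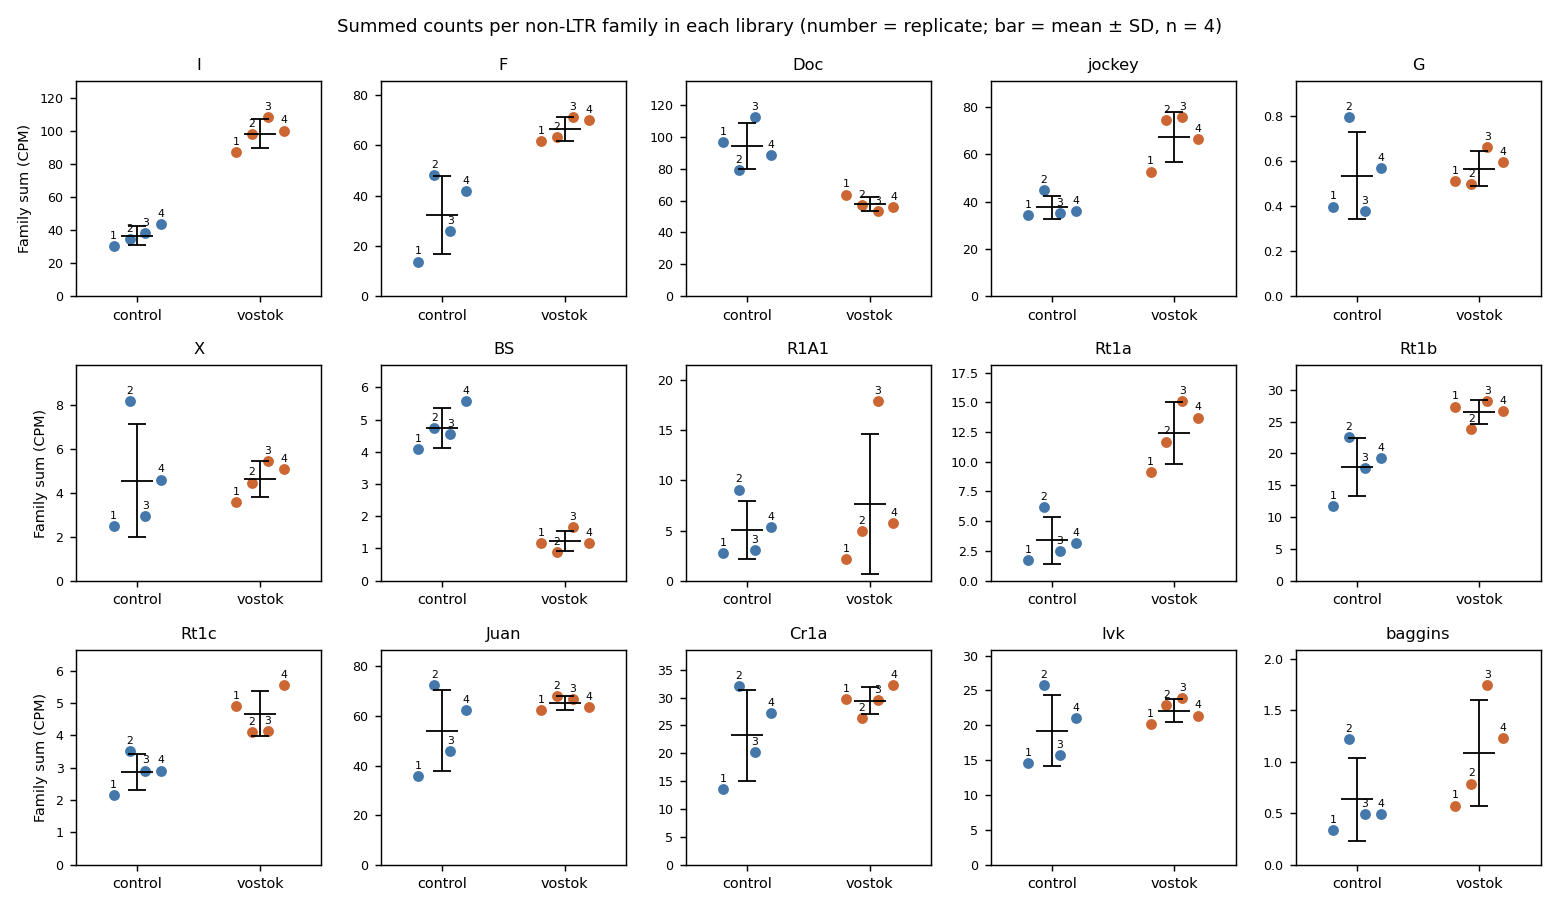
Summed level of each non-LTR family (y axis, CPM of gene counts, from 0) in the 4 control (blue) and 4 vostok (orange) libraries, with the replicate number at each point and the mean ± SD as bars. I, jockey, F, Rt1a, Rt1b and Rt1c lie higher in each vostok library than in any control library, Doc and BS lie lower, and the other 7 families overlap.

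Among the families of the I clade, the sum of the I element rose. The I element is known as the cause of the I-R type of hybrid dysgenesis, in which crosses between strains with and without active copies give sterile daughters. The I family sum was 30.2, 34.5, 38.2 and 43.8 CPM in control replicates 1 to 4 and 87.2, 97.9, 109 and 100.2 CPM in vostok replicates 1 to 4. All vostok libraries lay above all control libraries, with a log2 fold change of 1.42 ± 0.12 (SE, edgeR adjusted p = 1.67e-04). The group means differed by 61.8 CPM, of which I{}18 accounted for 34.2 CPM and I{}1483 for 22.7 CPM. I{}18 (FBti0019537) was at 5.12, 4.70, 4.39 and 5.42 CPM in control and 33.8, 42.8, 40.8 and 39.0 CPM in vostok libraries. Both groups were tight, and the log2 fold change was 2.99 ± 0.10 (adjusted p = 1.5e-06, in a fit over all genes and all insertions). I{}1483 (FBti0019473), the copy with the most counts in the family, was more variable at 7.69, 18.2, 16.3 and 29.7 CPM in control and 33.3, 38.4, 47.6 and 43.4 CPM in vostok libraries. It rose by a log2 fold change of 1.18 ± 0.35 (adjusted p = 0.045), a call that was lost with control replicate 2 or 3 or vostok replicate 1, 2, 3 or 4 left out (adjusted p = 0.0607 to 0.107). Without I{}1483 the remaining I counts were higher too, from 18.7 ± 4.16 to 57.8 ± 3.09 CPM (log2 fold change 1.63 ± 0.15, adjusted p = 2.97e-04).

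Other I copies moved the opposite way or from near 0. I{}62 (FBti0019581) was at 9.12, 5.06, 8.52 and 2.68 CPM in control libraries and listed at 0 in each vostok library. By group means that is at least 138-fold lower against a floor of 3 counts per library (edgeR adjusted p = 0.00108). Such bounds, here and below, hold for group means and not for each library. They also take listed zeros as measured, though shared reads may have been given to other copies. Whether a copy is present in the genomes of both groups was not tested. I{}1078 (FBti0020189) was at 0.570, 0, 0.475 and 0 CPM in control and 5.86, 2.80, 7.15 and 7.80 CPM in vostok libraries (log2 fold change 4.51 ± 1.23, adjusted p = 0.0338), and its call was lost with control replicate 3 or vostok replicate 1, 2, 3 or 4 left out (adjusted p = 0.0646 to 0.0794). Of 38 I insertions, 20 had no count in any library, 9 fell under the count filter and 9 were tested, of which 6 were higher and 2 lower. Over all 987 tested insertions edgeR called 19.1% higher and 11.7% lower, shares to set beside the counts of each family. Copies could pass the count filter through the group in which they were high.

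Ivk, the other family of the I clade, did not pass as a sum, and its copies moved apart. The sums were 14.6, 25.7, 15.7 and 21.0 CPM in control and 20.1, 22.9, 23.9 and 21.4 CPM in vostok libraries (log2 fold change 0.20 ± 0.18, edgeR adjusted p = 0.402). Ivk{}1704 (FBti0059765) rose from 2.21, 3.20, 2.14 and 3.11 CPM to 10.2, 11.1, 10.3 and 9.68 CPM (log2 fold change 1.95 ± 0.17, adjusted p = 1.77e-04). The copy with the most counts, Ivk{}1098, was at 14.7 ± 4.23 CPM in control and 11.7 ± 1.38 CPM in vostok libraries and did not pass (adjusted p = 0.242), except with control replicates 1 and 3 left out, where it was lower (adjusted p = 0.0152). Ivk{}1704 took 12.5% to 15.1% of the family's counts in control libraries and 42.9% to 50.5% in vostok libraries. Ivk{}206 (FBti0019678) was at 0.973, 2.95, 2.70 and 0.864 CPM in control libraries and listed at 0 in each vostok library, at least 40.7-fold lower (adjusted p = 0.00289). When Ivk{}1098 was left out, the remaining Ivk counts were higher in vostok libraries (log2 fold change 1.18 ± 0.20, adjusted p = 0.00428). Reads that fit several copies can be given to any of them, and their part in this difference was not tested.

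Juan, a family of the jockey clade with 11 insertions here, was divided between its copies in a like way. Its sums were 35.7, 72.3, 45.9 and 62.5 CPM in control and 62.3, 67.9, 66.9 and 63.4 CPM in vostok libraries, which overlapped (log2 fold change 0.27 ± 0.20, edgeR adjusted p = 0.32). Juan{}303 (FBti0019118) was at 8.60, 10.4, 4.82 and 7.68 CPM in control against 31.6, 40.9, 37.4 and 38.7 CPM in vostok libraries. These ranges were far apart (log2 fold change 2.24 ± 0.22, adjusted p = 3.74e-04). Juan{}1190 (FBti0019286) was at 24.3, 59.0, 39.0 and 51.2 CPM in control against 28.4, 23.7, 25.7 and 20.8 CPM in vostok libraries, and control replicate 1 lay among the vostok values. Its log2 fold change was -0.82 ± 0.25 (adjusted p = 0.0494), a call that was lost with control replicate 2, 3 or 4 or vostok replicate 1, 2, 3 or 4 left out (adjusted p = 0.0655 to 0.116). Juan{}257 (FBti0019729) was at 0.263, 2.64, 1.49 and 3.02 CPM in control libraries and listed at 0 in each vostok library, at least 40.3-fold lower (adjusted p = 0.00972). Juan{}1190 held 68.2% to 85.0% of the family's counts in control libraries and 32.8% to 45.6% in vostok libraries. Juan{}303 held 10.5% to 24.1% and 50.7% to 61.1%. With Juan{}1190 left out, the other Juan counts rose from 10.7 ± 2.71 to 40.5 ± 4.54 CPM (log2 fold change 1.92 ± 0.19, adjusted p = 4.38e-04). Here too, the part of reads that fit several copies in this rise was not tested.

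**Figure D2:**
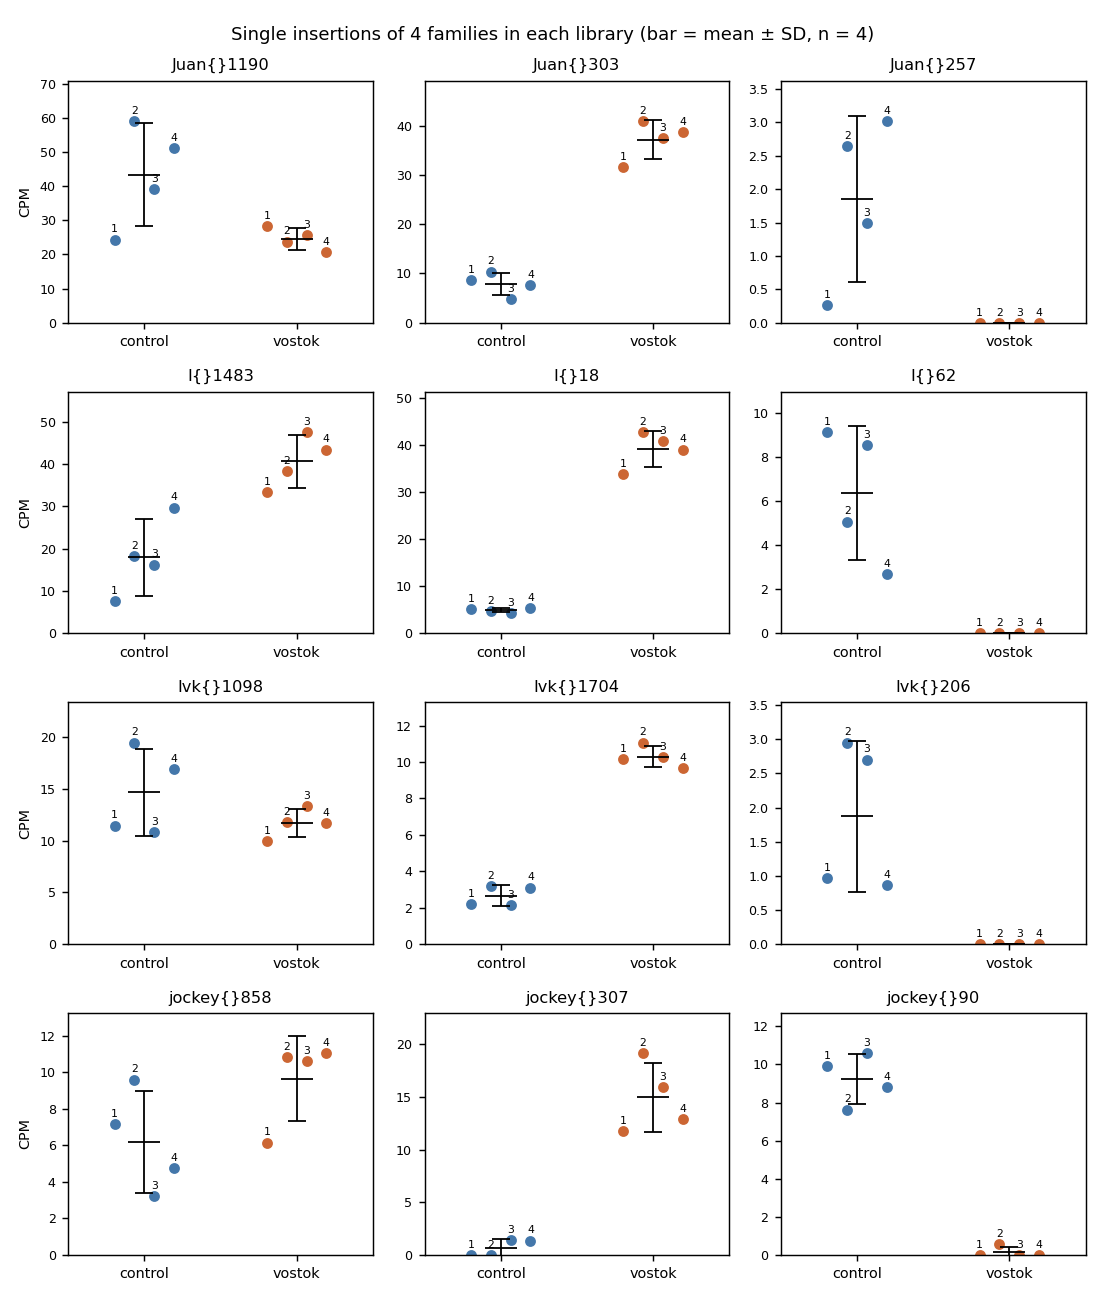
Level of 3 insertions each of Juan, I, Ivk and jockey (y axis, CPM from 0) in the 4 control (blue) and 4 vostok (orange) libraries, with replicate numbers and mean ± SD. The middle column holds copies that were higher in each vostok library (Juan{}303, I{}18, Ivk{}1704, jockey{}307), and the right column copies at or near 0 in the vostok libraries (Juan{}257, I{}62, Ivk{}206, jockey{}90).

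The jockey family, which gives its clade its name, was at 34.2, 45.1, 35.3 and 35.9 CPM in control and 52.7, 74.5, 75.9 and 66.4 CPM in vostok libraries. The groups did not overlap (log2 fold change 0.84 ± 0.14, edgeR adjusted p = 0.00372). Its copies moved in both directions. jockey{}307 (FBti0019122) was at 0, 0, 1.40 and 1.36 CPM in control libraries, where the zeros are listed values, against 11.8, 19.1, 16.0 and 12.9 CPM in vostok libraries (log2 fold change 4.45 ± 1.26, adjusted p = 0.0376). In contrast, jockey{}90 (FBti0019609) was at 9.92, 7.63, 10.6 and 8.82 CPM in control libraries, at 0.562 CPM in vostok replicate 2 and listed at 0 in the other 3 (log2 fold change -5.93 ± 1.30, adjusted p = 0.0155), a call lost with control replicates 1 and 3 left out (adjusted p = 0.14). Low in control libraries and higher in vostok libraries were jockey{}1447 (0.802 ± 0.709 and 11.1 ± 5.20 CPM, adjusted p = 0.029), jockey{}51 (0.225 ± 0.300 and 3.03 ± 0.947 CPM, adjusted p = 0.0309) and jockey{}765 (0.149 ± 0.162 and 2.17 ± 1.06 CPM, adjusted p = 0.0258). The calls of these higher copies were lost when single libraries were left out. That of jockey{}307 was lost with control replicate 3 or 4 or vostok replicate 1, 2, 3 or 4 left out (adjusted p = 0.0545 to 0.0967). That of jockey{}1447 was lost with control replicate 1 or 4 or vostok replicate 2, 3 or 4 left out (adjusted p = 0.0637 to 0.074). That of jockey{}51 was lost with control replicate 3 or 4 or vostok replicate 1, 2, 3 or 4 left out (adjusted p = 0.0516 to 0.0845), and that of jockey{}765 with control replicate 4 or vostok replicate 1, 2 or 3 left out (adjusted p = 0.0586 to 0.0678). The copy with the most counts, jockey{}858, was at 6.18 ± 2.79 CPM in control and 9.65 ± 2.34 CPM in vostok libraries and did not pass (adjusted p = 0.186), except with control replicate 2 left out (adjusted p = 0.0446). Of 96 jockey insertions 22 were tested, 6 of them higher and 2 lower, against 19.1% higher and 11.7% lower of all 987 tested insertions.

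F elements were higher in each vostok library, yet the sum did not pass. The F sum was 13.8, 48.2, 25.9 and 41.8 CPM in control and 61.7, 63.4, 71.4 and 70.0 CPM in vostok libraries, with a wide spread among the control libraries (log2 fold change 1.04 ± 0.34, edgeR adjusted p = 0.0578). Its control values followed the order of the neuronal marker sums given above, lowest in control replicates 1 and 3, and the part of the markers in the F level was not tested. The sum passed without control replicate 1 (log2 fold change 0.79 ± 0.20, adjusted p = 0.0353) and without control replicate 2 (1.29 ± 0.33, adjusted p = 0.019). With both control replicates 1 and 3 left out it passed at a smaller log2 fold change of 0.57 ± 0.09 (adjusted p = 0.00652). F{}1572 (FBti0020453), the copy with the most counts, showed that spread, at 6.08, 26.2, 12.5 and 24.0 CPM in control and 24.2, 21.0, 22.4 and 22.7 CPM in vostok libraries (adjusted p = 0.465). The remaining F counts rose from 15.2 ± 6.14 to 44.0 ± 5.15 CPM (log2 fold change 1.53 ± 0.29, adjusted p = 0.0082).

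Single F copies were mostly at a higher level in vostok libraries. Of 70 F insertions 41 were tested, and 15 were higher and 1 lower. A log2 fold change above 0 was found for 37 of the 41 tested. Over all 987 tested insertions the median log2 fold change was 0.35, and 19.1% were called higher and 11.7% lower. Copies of a family can share reads and could pass the filter through the group in which they were high. The higher copies had vostok means of 0.272 to 6.55 CPM. F{}763 (FBti0018914) went from 0.198, 0.610, 0.600 and 0.355 CPM in control to 5.11, 4.42, 4.99 and 4.36 CPM in vostok libraries (log2 fold change 3.40 ± 0.36, edgeR adjusted p = 4.44e-04). F{}395 (FBti0019190) rose in a like way, from 0.0427, 0.179, 0.306 and 0.324 CPM in control to 3.50, 3.23, 3.03 and 4.59 CPM in vostok libraries (log2 fold change 4.06 ± 0.53, adjusted p = 0.00127). F{}998 (FBti0020109) was at 0.216, 0, 0 and 0.395 CPM in control and 4.27, 5.83, 7.05 and 9.05 CPM in vostok libraries, and passed with a log2 fold change of 5.43 ± 1.12 (adjusted p = 0.0119), but not with control replicates 1 and 3 left out (adjusted p = 0.0925). F{}731 (FBti0018912) was listed at 0 in each control library and was at 0.590, 2.15, 2.52 and 1.87 CPM in vostok libraries, at least 41.3-fold higher (adjusted p = 0.0021). The lower copy, F{}2016 (FBti0060077), was at 0.968, 2.07, 2.59 and 1.38 CPM in control and 0.193, 0.132, 0.116 and 0.0398 CPM in vostok libraries (log2 fold change -3.90 ± 0.51, adjusted p = 0.0013).

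Doc was the family that fell across many copies. Its sum was 96.7, 79.1, 112 and 88.5 CPM in control and 63.7, 57.2, 53.6 and 55.9 CPM in vostok libraries, and each vostok library lay below the lowest control value (log2 fold change -0.71 ± 0.11, edgeR adjusted p = 0.00306). The control values stood in the order of the hemocyte marker sums, which were 1806.1, 252.4, 5339 and 1651.5 CPM in control replicates 1 to 4. In vostok replicates 1 to 4 those sums were 785, 350, 357 and 154 CPM, and the orders differed. The part of these markers in the Doc level was not tested. Of 69 Doc insertions 51 were tested, and 20 were lower and 4 higher. A log2 fold change below 0 was found for 43 of the tested copies. Among all 987 tested insertions 11.7% were called lower and 19.1% higher. As for F, Doc copies can share reads and could pass the filter through the group in which they were high. Counts concentrated on Doc{}CHKov1[Doc1420] (FBti0019430), named after the gene CHKov1 in which it lies, an insertion known from natural populations for its link to insecticide and virus resistance. This copy was at 68.5, 46.9, 78.5 and 60.4 CPM in control and 45.3, 36.5, 32.6 and 37.0 CPM in vostok libraries (log2 fold change -0.75 ± 0.17, adjusted p = 0.0159). The ranges did not overlap, and the call was lost with vostok replicate 2 left out (adjusted p = 0.0514). CHKov1 itself fell alongside, from 25.6, 17.9, 22.1 and 20.1 CPM to 16.2, 15.6, 13.0 and 12.9 CPM (log2 fold change -0.57 ± 0.13, adjusted p = 0.0167), with its call lost with vostok replicate 3 or 4 left out (adjusted p = 0.0501 to 0.0534). With control replicates 1 and 3 left out neither passed (adjusted p = 0.0771 for the copy and 0.0669 for the gene). The copy held 59.3% to 70.9% of Doc counts in control and 60.8% to 71.0% in vostok libraries. Without it the other Doc counts fell too, from 30.6 ± 2.92 to 19.7 ± 1.30 CPM (log2 fold change -0.63 ± 0.09, adjusted p = 0.00157).

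The other 19 lower Doc copies were at control means of 0.291 to 3.18 CPM, and their falls on the log2 scale ranged from -3.45 to -0.91. Doc{}942 (FBti0020053) was at 3.65, 3.53, 2.97 and 2.56 CPM in control and 0.468, 0.501, 0.124 and 0.0652 CPM in vostok libraries (log2 fold change -3.45 ± 0.59, edgeR adjusted p = 0.00503). Doc{}1101 (FBti0020212) was at 2.31, 1.38, 1.81 and 2.09 CPM in control and 0.320, 0.277, 0.325 and 0.336 CPM in vostok libraries, with a log2 fold change of -2.58 ± 0.24 (adjusted p = 2.44e-04). Both copies were lower in each vostok library than in any control library and kept their calls with each library left out in turn. The 4 higher Doc copies include Doc{}1674 (FBti0059735), chosen after its values were seen, which went from 0.891 ± 0.416 CPM in control to 3.66 ± 0.365 CPM in vostok libraries (log2 fold change 2.04 ± 0.31, adjusted p = 0.00292).

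BS, a further family of the jockey clade, had the largest fall of the 15 sums on the log2 scale. It was at 4.07, 4.73, 4.56 and 5.57 CPM in control and 1.17, 0.895, 1.66 and 1.17 CPM in vostok libraries, with no overlap (log2 fold change -1.95 ± 0.22, edgeR adjusted p = 6.71e-04). BS{}1260 (FBti0019332) held 62.0% to 73.5% of BS counts in control and 33.9% to 52.0% in vostok libraries. It was at 2.73, 3.48, 2.82 and 3.67 CPM in control and 0.606, 0.303, 0.685 and 0.606 CPM in vostok libraries (log2 fold change -2.52 ± 0.29, adjusted p = 7.09e-04). Without that copy BS still fell (log2 fold change -1.21 ± 0.27, adjusted p = 0.0148). Of 43 BS insertions 28 had no count in any library. The 3 tested, beside 11.7% called lower among all 987 tested insertions, included 2 lower copies. The second of these, BS{}1292 (FBti0019358), likewise named after its values were seen, was at 0.378, 0.496, 0.976 and 0.951 CPM in control libraries and listed at 0 in each vostok library, at least 15.2-fold lower (adjusted p = 0.00216).

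X and G, the remaining families of the jockey clade, were low and did not pass. X sums were 2.49, 8.16, 2.93 and 4.60 CPM in control and 3.58, 4.45, 5.43 and 5.08 CPM in vostok libraries, and control replicate 2 lay above all others (edgeR adjusted p = 0.959). G sums were 0.398, 0.796, 0.377 and 0.567 CPM in control and 0.512, 0.497, 0.662 and 0.594 CPM in vostok libraries, which overlapped (adjusted p = 0.847). X{}3139, the X copy with the most counts, was at 1.01 ± 0.275 and 1.09 ± 0.279 CPM, and G{}431, that of G, at 0.233 ± 0.114 and 0.141 ± 0.0186 CPM. Neither passed (adjusted p = 0.797 and 0.202). Of 6 tested X copies 2 were higher by edgeR and 0 lower, with 0 lower also at an unadjusted p below 0.05, by DESeq2 and by limma voom. Among all 987 tested insertions edgeR called 19.1% higher and 11.7% lower.

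In the R1 clade, the 3 Rt1 families lay higher in each vostok library and R1A1 did not. Rt1a was at 1.74, 6.20, 2.46 and 3.18 CPM in control and 9.16, 11.7, 15.1 and 13.7 CPM in vostok libraries (log2 fold change 1.87 ± 0.38, edgeR adjusted p = 0.0114). Its copy with the most counts, Rt1a{}957 (FBti0020068), was at 0, 2.91, 0.789 and 0 CPM in control and 5.42, 6.79, 8.89 and 7.21 CPM in vostok libraries. The groups did not overlap, the control libraries differed widely, and the copy did not pass (edgeR adjusted p = 0.142). It passed with control replicate 2 left out (adjusted p = 0.039) and in limma voom (adjusted p = 0.0227). Rt1c was at 2.15, 3.51, 2.91 and 2.91 CPM in control and 4.89, 4.11, 4.12 and 5.54 CPM in vostok libraries (log2 fold change 0.70 ± 0.19, adjusted p = 0.0318). The Rt1c call did not hold with control replicate 1, 3 or 4 or vostok replicate 1, 2, 3 or 4 left out (adjusted p = 0.0556 to 0.0859). Rt1c{}5065, the copy with the most counts, was at 1.68 ± 0.317 and 2.20 ± 0.253 CPM and did not pass (adjusted p = 0.185). Of 5 tested Rt1a copies 0 passed in edgeR, at an unadjusted p below 0.05 or in DESeq2, and 2 were higher in limma voom.

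Rt1b was at 11.7, 22.6, 17.7 and 19.2 CPM in control and 27.4, 23.8, 28.2 and 26.7 CPM in vostok libraries, and the sum did not pass (log2 fold change 0.57 ± 0.18, edgeR adjusted p = 0.0518). It passed with control replicate 1 or 2 left out (adjusted p = 0.0117 to 0.0322), in DESeq2 (0.0185), in limma voom (0.0454) and with totals without ribosomal RNA (0.0499). Rt1b{}334 (FBti0019144) was at 0, 1.15, 1.69 and 0 CPM in control and 13.4, 9.47, 12.5 and 10.4 CPM in vostok libraries and did not pass (log2 fold change 4.01 ± 1.27, edgeR adjusted p = 0.0529), but passed in limma voom (adjusted p = 0.0112). With it left out the sign turned, to a log2 fold change of -0.18 ± 0.17 (adjusted p = 0.429). Rt1b{}1666 and Rt1b{}1218, chosen after their values were seen, fell from 6.63 ± 1.85 to 2.27 ± 0.862 CPM and from 4.38 ± 1.19 to 2.10 ± 0.331 CPM (adjusted p = 0.00892 and 0.0193). The call of Rt1b{}1218 was lost with control replicate 3 or vostok replicate 2 or 3 left out (adjusted p = 0.0536 to 0.0599). Of 60 Rt1b insertions 12 were tested, 2 of them higher and 3 lower, against 19.1% higher and 11.7% lower of all 987 tested insertions.

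R1A1 is known for inserting at a fixed place in the 28S ribosomal RNA genes. Its sum was 2.74, 9.09, 3.08 and 5.34 CPM in control and 2.15, 4.96, 17.9 and 5.72 CPM in vostok libraries, and did not pass (log2 fold change 0.60 ± 0.65, edgeR adjusted p = 0.492). Vostok replicate 3 stood far above all others, and without it the log2 fold change was -0.25 ± 0.51 (adjusted p = 0.741). The same library held the most nuclear ribosomal RNA, 8.16% of its gene counts, against 0.802% to 2.86% in the other 7. Its part in the R1A1 level was not tested. R1A1{}6563 (FBti0215396), the copy with the most counts, was at 0.547 to 9.72 CPM in vostok and 0.522 to 2.38 CPM in control libraries (adjusted p = 0.198). Of the 6 tested R1A1 copies 0 passed in edgeR, 0 had an unadjusted p below 0.05, and 0 passed in DESeq2 or limma voom.

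Cr1a, of the CR1 clade, and baggins, of the LOA clade, did not pass either. Cr1a had the most insertions, 152, of which 52 had no count in any library and 18 were tested, with 1 lower and 0 higher in edgeR, DESeq2 and limma voom alike. At an unadjusted p below 0.05 in edgeR 1 was higher and 2 lower. Its sums were 13.5, 32.0, 20.2 and 27.2 CPM in control and 29.7, 26.3, 29.5 and 32.2 CPM in vostok libraries (log2 fold change 0.34 ± 0.24, edgeR adjusted p = 0.292). Control replicates 1 and 3 were the lowest. Cr1a{}1607 (FBti0059668), the copy with the most counts, was at 5.40, 14.7, 8.47 and 12.1 CPM in control and 17.2, 14.8, 15.0 and 18.1 CPM in vostok libraries. It lay above all control values in each vostok library but did not pass (adjusted p = 0.103), except with control replicate 2 left out (adjusted p = 0.0241). The baggins sums were 0.334, 1.22, 0.494 and 0.490 CPM in control and 0.574, 0.789, 1.74 and 1.23 CPM in vostok libraries (adjusted p = 0.252), and passed with control replicate 2 left out (adjusted p = 0.0346). baggins{}6506 was the only tested copy, at 0.152 ± 0.106 and 0.398 ± 0.308 CPM (adjusted p = 0.148), and passed with control replicate 2 left out (adjusted p = 0.0455).

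**Figure D3:**
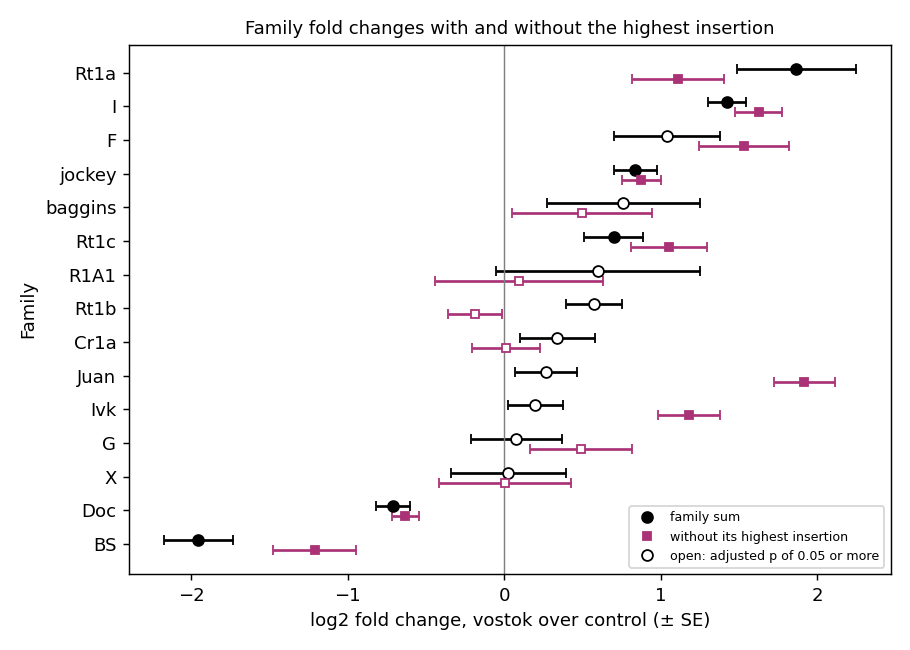
Log2 fold change (vostok over control, x axis, ± SE) of each family sum (circles) and of the sum without the family's highest insertion (squares), from the edgeR fits, with open symbols where the adjusted p was 0.05 or more. Juan and Ivk move from near 0 to 1.92 and 1.18 once their highest copy is left out, Rt1b moves to the other side of 0, and I, jockey, Rt1a, Rt1c, Doc and BS stay on their side.

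Most insertions gave too few counts to be tested. Of the 751, 237 had no count in any library, 330 fell under the count filter and 184 were tested. Among the tested, 38 were higher and 34 lower in vostok libraries, where 12.1% and 11.9% of all 11736 tested rows (23.9% in both directions) and 30.8% of all 987 tested insertions were called. A copy could pass the filter through the group in which it was high, so these counts describe the copies that passed and not all 751. The groups did not overlap for 80 of the tested copies, against 30.6% of all tested rows and 36.8% of all tested insertions. In 7 families copies were called in both directions. Doc held 20 of the 34 lower copies, and F held 15 of the 38 higher ones. With each library left out in turn, 28 to 35 copies were lower. Higher copies numbered 59 with control replicate 2 left out and 25 with control replicate 3 left out. They numbered 23, 19, 19 and 24 when vostok replicate 1, 2, 3 or 4 was missing.

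**Figure D4:**
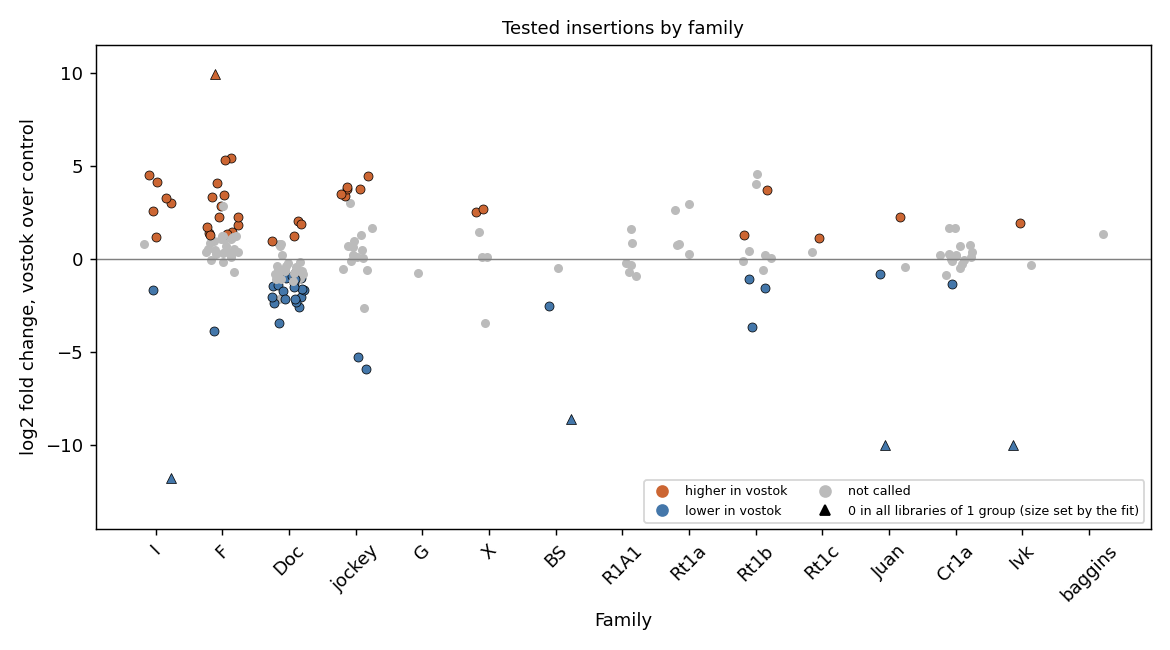
Fitted log2 fold change (y axis, vostok over control) of the 184 tested insertions by family (x axis), coloured where the edgeR adjusted p was below 0.05. Triangles mark copies listed at 0 in all libraries of 1 group, whose fitted size is set by the fit and is no measure. Copies of F lie mostly above 0 and copies of Doc mostly below, while I, jockey, Rt1b, Juan and Ivk hold called copies on both sides.

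Some copies were at or near 0 in all libraries of 1 group. Under 3 counts in each control library and at least 10 in each vostok library were found for F{}731 and F{}4468. The reverse was found for I{}62, Ivk{}206, Juan{}257, BS{}1292 and jockey{}841. F{}4468 and jockey{}841 were named after their values were seen. A count listed at 0 can also arise when reads that fit several copies are given to another copy. Opposite changes of copies of the same family can arise in that way too. Neither was tested. The spread of single copies between libraries of a group was larger than that of the sums. The coefficient of variation had a median of 48.0% (control) and 34.6% (vostok) over tested copies and 30.3% and 13.5% over family sums. The counts were concentrated on few copies, since the 10 highest of the 751 insertions held 55.0% of their summed level. Lengths of the copies were not used here, so the order of families or copies by CPM is not an order of RNA molecules.

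The control libraries were not alike, and most family sums were split in the same way. In 11 of the 15 families both control replicates 1 and 3 lay below both control replicates 2 and 4, and in 1 family, Doc, both lay above. Over all tested genes these orders held for 30.5% and 32.0%. Control replicates 1 and 3 had the lowest neuronal marker sums, and the sums of 9 families, F, Juan and Cr1a among them, stood in the full order of those markers across the control libraries, with replicate 1 lowest and replicate 2 highest. That order held for 14.4% of tested genes. The part of the markers in the family levels was not tested. With control replicates 1 and 3 left out, I (log2 fold change 1.33), jockey (0.73), Rt1a (1.40) and F (0.57) were higher and Doc (-0.54) and BS (-2.08) lower, with edgeR adjusted p from 4.98e-04 to 0.0438. Rt1c did not pass in that fit (adjusted p = 0.134).

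**Figure D5:**
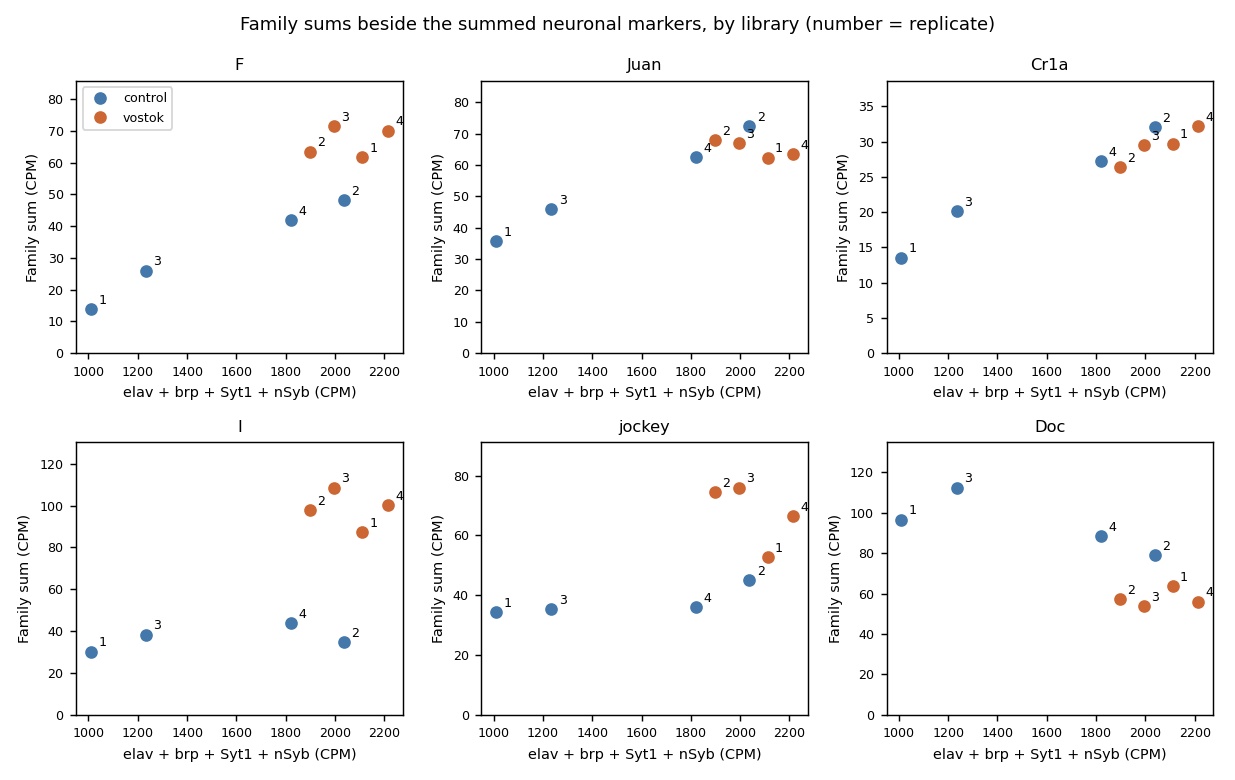
Family sums of F, Juan, Cr1a, I, jockey and Doc (y axis, CPM from 0) against the summed level of elav, brp, Syt1 and nSyb (x axis, CPM) in each library, with replicate numbers. Control replicates 1 and 3 have the lowest marker sums (1011 and 1235 CPM) and the lowest F, Juan and Cr1a sums.

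Genes that silence transposable elements showed no common direction. Of 56 listed genes of the piRNA and siRNA pathways and of heterochromatin, 55 were tested, and 7 were higher and 8 lower in vostok libraries. Over all gene rows 11.6% were higher and 12.1% lower. The piRNA list had 5 higher and 6 lower members of 36 tested, the siRNA list 1 and 1 of 4, and the heterochromatin list 1 and 1 of 15. AGO2, the Argonaute protein that carries siRNAs, was lower at 376 ± 33.1 CPM in control and 256 ± 11.0 CPM in vostok libraries (log2 fold change -0.56 ± 0.08, edgeR adjusted p = 0.00184). r2d2, which helps load AGO2, was higher at 47.5 ± 2.09 and 58.2 ± 1.49 CPM (log2 fold change 0.29 ± 0.05, adjusted p = 0.00645). HP1b, a heterochromatin protein of the HP1 family, fell from 98.8 ± 4.50 to 79.7 ± 4.87 CPM (adjusted p = 0.0103).

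Of the piRNA genes, SoYb (0.541 ± 0.0989 and 2.08 ± 0.419 CPM), del (9.91 ± 1.10 and 15.9 ± 0.862 CPM), Gasz (15.9 ± 1.96 and 24.7 ± 1.36 CPM), tej (1.38 ± 0.313 and 2.86 ± 0.694 CPM) and moon (0.0882 ± 0.0559 and 0.433 ± 0.0959 CPM) were higher in vostok libraries, with edgeR adjusted p of 8.86e-04, 0.00181, 0.00283, 0.0184 and 0.00711. SoYb, Gasz and tej act in making or amplifying piRNAs, and del and moon in transcribing piRNA source loci. Lower were vret (12.4 ± 2.97 and 7.51 ± 0.838 CPM), spn-E (14.0 ± 1.18 and 10.1 ± 1.64 CPM), nxf2 (16.9 ± 1.86 and 13.0 ± 1.07 CPM) and Nxt1 (33.5 ± 2.98 and 27.3 ± 1.59 CPM), with adjusted p of 0.0226, 0.0308, 0.0291 and 0.0298. papi (40.9 ± 4.94 and 32.9 ± 1.56 CPM), shu (6.20 ± 1.35 and 3.94 ± 0.526 CPM) and Su(var)3-3, a histone demethylase (50.1 ± 3.01 and 59.5 ± 4.42 CPM), named after their values were seen, made up the other called genes, with papi and shu lower and Su(var)3-3 higher (adjusted p = 0.0408, 0.0387 and 0.0414). Calls were lost for tej with control replicate 3 or vostok replicate 1 or 2 left out (adjusted p = 0.0516 to 0.0608), for vret with control replicate 3 or vostok replicate 2 or 3 left out (adjusted p = 0.0603 to 0.0676), for spn-E with control replicate 3 or 4 or vostok replicate 2, 3 or 4 left out (adjusted p = 0.0624 to 0.0878), for nxf2 with control replicate 1 or 3 or vostok replicate 2, 3 or 4 left out (adjusted p = 0.058 to 0.0772) and for Nxt1 with control replicate 3 or vostok replicate 1, 2, 3 or 4 left out (adjusted p = 0.0552 to 0.0759). They were also lost for papi with control replicate 1, 3 or 4 or vostok replicate 1, 2, 3 or 4 left out (adjusted p = 0.0513 to 0.102), for shu with control replicate 1 or 3 or vostok replicate 1, 2, 3 or 4 left out (adjusted p = 0.0659 to 0.103) and for Su(var)3-3 with control replicate 1, 3 or 4 or vostok replicate 1, 2 or 4 left out (adjusted p = 0.0514 to 0.108). The count of lower genes was 5 without control replicate 1 or vostok replicate 1, 2 without control replicate 3 or vostok replicate 2 or 3, and 3 without vostok replicate 4. Germ line markers were low in all libraries: the summed level of vas, nos, bam, osk and zpg was 1.22 to 1.64 CPM in control and 2.30 to 3.07 CPM in vostok libraries. Of these 5 genes 3 were tested and 2, bam and osk, were higher, as were 11.6% of all gene rows. For bam the levels were 0.383 ± 0.135 and 1.26 ± 0.167 CPM (adjusted p = 0.0047). The call of osk was lost with control replicate 1 or 3 or vostok replicate 1, 2 or 3 left out (adjusted p = 0.0742 to 0.0871). The part of the germ line difference in the levels of the elements was not tested.

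Names of 7 insertions point to the gene they lie in or beside, which allows a look at that gene. These were chosen because of their names, after values were seen. Besides CHKov1, described above, Ir93a, an ionotropic receptor, was at 0.360 ± 0.136 CPM in control and 0.552 ± 0.0621 CPM in vostok libraries and did not pass (edgeR adjusted p = 0.17), while Doc{}Ir93a[iso-1] fell from 0.872 ± 0.259 to 0.171 ± 0.0470 CPM (adjusted p = 0.00167). Sirt6, a deacetylase, was at 7.59 ± 0.476 CPM in control and 7.53 ± 0.403 CPM in vostok libraries (adjusted p = 0.939). I{}Sirt6-iso-1b rose from 0.412 ± 0.278 to 3.94 ± 1.27 CPM (adjusted p = 0.0337), a call lost with control replicate 3 or 4 or vostok replicate 1, 2, 3 or 4 left out (adjusted p = 0.0624 to 0.0787). I{}Sirt6-iso-1a was at 5.23, 0, 4.90 and 0 CPM in control and 5.11, 3.66, 5.20 and 3.92 CPM in vostok libraries and did not pass (adjusted p = 0.684). CG34353 was at 59.8 ± 28.8 and 103 ± 1.28 CPM (adjusted p = 0.0889). Its Rt1b insertion, which fell under the count filter, had a mean of 0.986 CPM in control libraries and was listed at 0 in each vostok library. The copies named after kuz and ey were at or under 0.541 CPM in both groups and were not called or not tested. Of the 6 genes named by these insertions, CHKov1 alone passed the test.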

How the data were processed

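RNA-seq of larval brains was deposited by the authors as 1 table of expected counts per gene, insertion and repeat entry, estimated with salmon per the file name, for 4 control and 4 vostok libraries. The salmon version, annotation, strand setting and treatment of reads that fit several copies were not given in the sources used here. Expected counts were rounded to whole numbers, insertions were also summed by family, and both were tested beside all genes with edgeR 4.0.16 (quasi-likelihood F test, robust, R 4.3.3). Library sizes were the totals of gene rows with no further factors, rows with low counts were left out by filterByExpr, and p-values were adjusted by Benjamini-Hochberg over all tested rows. The SE given with an edgeR log2 fold change was worked back from the test, as its size divided by the square root of the F statistic. Fits were tested on simulated data, with changes placed at random in rows above a minimum mean count. With genes and families, 26.9%, 64.2% and 84.8% of changes of 1.5, 2 and 4 fold were recovered, and 6.4% of calls were false. With genes and insertions 35.8%, 71.6% and 89.4% were recovered, and 0.758% of calls were false. Most rows in both fits were genes, so these rates are not rates for sums or copies alone. A sum or copy that did not pass may still differ. DESeq2 1.42.0, limma 3.58.1 voom, other scalings and filters, a replicate block and leaving out libraries were the alternatives. The text names each family, its insertion with the highest mean CPM, and called insertions with groups apart and a mean of at least 1 CPM in 1 group, namely the 8 largest increases, the 8 largest decreases and the 4 smallest p each way. Silencing genes were named up to 6 each way by p. Names outside these rules are marked where they stand. Families, lists and rules were chosen with earlier results of these data known. Replicates of a group differed beyond sampling noise. All 751 identifiers were found in the name table. No genome was used, so positions, lengths and sequences of insertions are not given. The Micro-C libraries were not analysed here.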

Additional observations from a re-analysis of the deposited data

Results flagged for a closer look

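Single libraries stood apart from the other 3 of their group in 3 of 100 groups of 4 values examined by Dixon's test, of which chance flags about 5%. For the jockey family sum, control replicate 2 was at 45.1 CPM, above the other control libraries. For jockey{}858, vostok replicate 1 was at 6.15 CPM, below the other vostok libraries. For jockey{}90, vostok replicate 2 was at 0.562 CPM, while the other vostok libraries were listed at 0. Entries of the table that carry the name of a member family but are repeats rather than numbered insertions were left out of the comparisons. Their summed level was 22.8 CPM on average in vostok libraries, against 18.3 ± 5.56 CPM (SD, n = 4) in control libraries, and the ranges of 10.7 to 23.8 CPM and 21.5 to 23.9 CPM overlapped. By family, the Doc entries were lower in each vostok library (3.40 ± 0.347 CPM in control and 2.08 ± 0.167 CPM in vostok libraries). The Ivk entries were higher in each (1.66 ± 0.374 and 3.46 ± 0.448 CPM), and those of F, Juan, Rt1a and X overlapped. The sums of these entries alone were not tested.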

How the results depend on the processing

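Of the 15 family sums, I, Doc, jockey, Rt1a and BS kept their direction and their call in each of the fits tried, with edgeR, DESeq2 and limma voom, other scalings and filters, and with libraries left out, at an adjusted p below 0.05. At an adjusted p below 0.01, 2 families were higher. With the highest insertion of each family left out 7 were higher, and with each library left out in turn 3 to 7 were higher and 2 to 2 lower. The F sum passed in DESeq2 (adjusted p = 0.0105) and limma voom (0.0413), and the Rt1b sum in DESeq2 (0.0185), limma voom (0.0454) and with totals without ribosomal RNA (0.0499). Higher insertions numbered 25 when at least 50 counts in 4 libraries were required, 16 at an adjusted p below 0.01 and 19 to 59 with single libraries left out. Lower insertions numbered 13, 21 and 28 to 35. Silencing genes called higher numbered 11 in DESeq2 and 5 to 10 with single libraries left out, and those lower 2 to 10. The difference between the groups in the mean of the log2 class totals, 0.48, was 0.84 without the highest insertions. Signs turned for sums and copies that did not pass. With control replicates 1 and 3 left out the log2 fold change was -0.27 for G, -0.46 for X, -0.049 for Juan, -0.0097 for Cr1a, -0.079 for Ivk, -0.15 for F{}1572 and -0.095 for X{}3139. X was at -0.11 with repeat entries added, an alternative chosen after seeing the data, and Rt1b at -0.18 without its highest insertion. With single libraries left out, G ranged from -0.054 to 0.34, X from -0.18 to 0.47, R1A1 from -0.25 to 1.05 and X{}3139 from -0.057 to 0.28. The cause of these changes was not tested.

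Same-numbered control and vostok libraries deviated from their group means with correlations of 0.238, 0.019, -0.002 and -0.084 over genes. Libraries with other numbers had correlations of -0.486 to 0.410. These values cannot decide whether the numbers pair the libraries, and the labels do not say. With the replicate block 22 insertions were higher, 5 silencing genes were higher and 2 lower, and the Rt1c sum did not pass (adjusted p = 0.0796). Copies with few counts limit the comparison, because 330 insertions with counts fell under the count filter.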
